A study of Mus musculus with 12 samples.

Results

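The genes described here are 5 chemokines that bind the receptor CXCR2 (Cxcl1, Cxcl2, Cxcl3, Cxcl5 and Ppbp), that receptor (Cxcr2), and 4 cytokines that drive the formation of myeloid cells (Csf1, Csf2, Csf3 and Il6). They were chosen by symbol, and all 10 were found among the 18433 genes of the deposited table and passed the filter on low counts that kept 14144 genes. RNA came from 12 subcutaneous tumours grown from 4T1, a mouse mammary carcinoma line, in the right flank of BALB/c mice. Mice bearing tumours were randomised to 4 groups of 5 mice, of which 3 libraries per group were sequenced on the BGISEQ-500 platform. The control group has no treatment in the labels, the DSF group was given DSF by mouth, the anti-PD-1 group was given a blocking antibody against the checkpoint receptor PD-1 into the peritoneum, and the combination group was given both. Doses, times and ages are not given in the labels, nor is the mouse from which each library came, so the p-values measure the spread between libraries.

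CXCR2 is the main receptor that draws mouse neutrophils out of the bone marrow and into inflamed tissue or tumours, and its ligands are small chemokines with a shared ELR motif. Csf3 encodes G-CSF, the main driver of neutrophil production, Csf2 encodes GM-CSF and Csf1 encodes M-CSF, which act on granulocyte and macrophage lineages, and Il6 encodes interleukin-6, which acts through STAT3. 4T1 tumours are known for an expansion of granulocytes in the mice that carry them. Many of these genes are induced by interleukin-1, TNF and interleukin-17 through the transcription factor NF-kB.

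The ligand genes lie next to each other on mouse chromosome 5, in the order Cxcl5, Ppbp, Pf4, Cxcl3, Cxcl15, Cxcl1 and Cxcl2. Promoter sequences from RefSeq (build GRCm38.p6) matched 8 of the 10 genes, all but Cxcl5 and Csf3. The 100 bases before the annotated start are shown for the matched ligands, which had their lowest group mean in the combination tumours, and for Il6 as a cytokine that did not. Capitals mark a match to the letters GGNNTTTCC, the core of the motif that NF-kB binds (here kB-like), on either strand or to TATAAA on the gene's strand, and all 5 windows are on the plus strand.
Cxcl1 (chr5:90891145-90891244): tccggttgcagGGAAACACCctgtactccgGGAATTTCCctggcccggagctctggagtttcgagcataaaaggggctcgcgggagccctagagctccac
Cxcl2 (chr5:90903799-90903898): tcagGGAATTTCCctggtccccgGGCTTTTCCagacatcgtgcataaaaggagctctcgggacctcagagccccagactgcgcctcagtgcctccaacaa
Cxcl3 (chr5:90786001-90786100): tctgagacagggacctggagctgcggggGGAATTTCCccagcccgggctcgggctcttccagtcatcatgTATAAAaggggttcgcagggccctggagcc
Ppbp (chr5:90768418-90768517): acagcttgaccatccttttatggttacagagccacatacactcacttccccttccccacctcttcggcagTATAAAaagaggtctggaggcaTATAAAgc
Il6 (chr5:30013014-30013113): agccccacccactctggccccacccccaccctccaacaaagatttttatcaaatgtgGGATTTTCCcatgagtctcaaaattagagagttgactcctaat

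The longest run of letters that the windows of Cxcl1, Cxcl2 and Cxcl3 share was GGGAATTTCCC, which contains a kB-like match. In the 250 bases before the start, this run was found on either strand in 0.0426% of 32851 promoter windows, and GGNNTTTCC in 4.93%. The run was read from these 3 promoters, which are among the 14 windows that hold it, so its presence in them was fixed. GGNNTTTCC was found in 5 of the 8 matched genes, namely Cxcl1, Cxcl2, Cxcl3, Csf1 and Il6. The shared run lay at positions -71 to -61 in Cxcl1, -97 to -87 in Cxcl2 and -73 to -63 in Cxcl3, counted from the start. Ppbp had no kB-like match in its window, but had TATAAA at -30 and at -8, and Cxcl3 had TATAAA at -30, letters found on the gene's strand in 7.59% of windows. The AP-1 letters TGANTCA were found upstream of Ppbp and Il6 and in 6.75% of windows. These matches describe letters only, and no binding was measured.

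**Figure D1:**
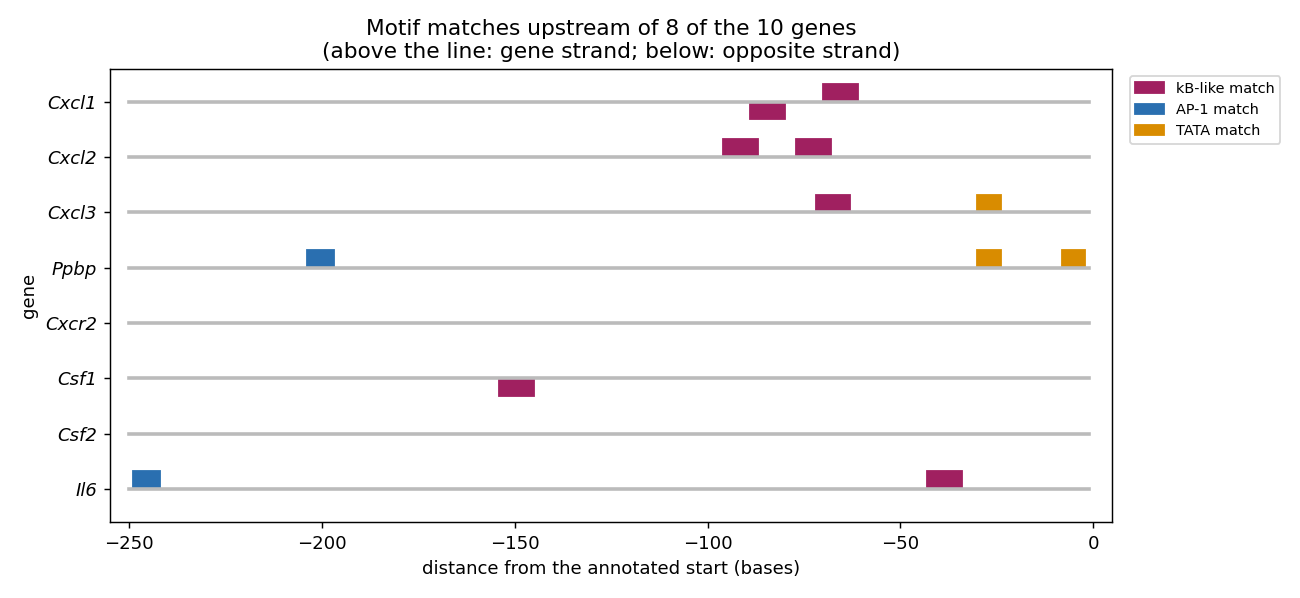
Matches to the kB-like, AP-1 and TATA letters in the 250 bases before the annotated start of the 8 matched genes, with distance from the start in bases on the x axis and boxes above the line for the gene's strand and below it for the other strand. Cxcl1 and Cxcl2 have 2 kB-like matches each, Cxcl3 has 1 and Ppbp has none.

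Library totals ranged from 13323179 to 16809690 rounded counts, and 15887 to 16753 genes had at least 1 count. Markers of tumour epithelium summed to between 960 and 1385 CPM (read counts scaled to library size) in all 12 libraries, so epithelial transcripts were present in each. This sum alone does not measure tumour content. Of its 8 genes, 3 were higher and 5 lower in combination than in DSF tumours, from -2.625 for Krt19 to 2.451 for Epcam on the log2 scale. Some libraries stood apart by tissue. DSF 2 held 6910 CPM of adipocyte markers against at most 411 CPM in each of the other 11 libraries, and combination 2 held 5951 CPM of skin markers against at most 1379 CPM elsewhere. Skin markers summed to between 561 and 5951 CPM in the combination libraries and to between 52.1 and 143 CPM in the DSF libraries.

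Among the chemokines, Cxcl1 and Cxcl5 were the most abundant per length. On the FPKM scale, which divides by transcript length and library size, they made up between 69.7% and 91.7% of the summed level of the 5 ligands (median 86.5% over 12 libraries). Cxcl1 averaged 71.2 ± 67.9 FPKM in control tumours, 130 ± 57.1 with DSF, 107 ± 25.4 with anti-PD-1 and 44.1 ± 6.09 with the combination (SD, n = 3 each). Csf1 and Csf3 had levels of the same order as Cxcl1: in control tumours Csf1 had 98.7 ± 22.4 FPKM and Csf3 had 59.4 ± 53.4 FPKM, and these 3 genes overlapped in range. Ppbp and Csf2 were at the bottom of the order in control tumours, at 1.05 ± 0.326 and 0.577 ± 0.285 FPKM. Csf1 was first in the combination tumours at 100.4 ± 13.6 FPKM and did not overlap Cxcl1, the next gene, whereas in DSF tumours Cxcl1, Csf3, Csf1 and Cxcl5 followed each other from 130 to 59.8 FPKM with overlapping neighbours.

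**Figure D2:**
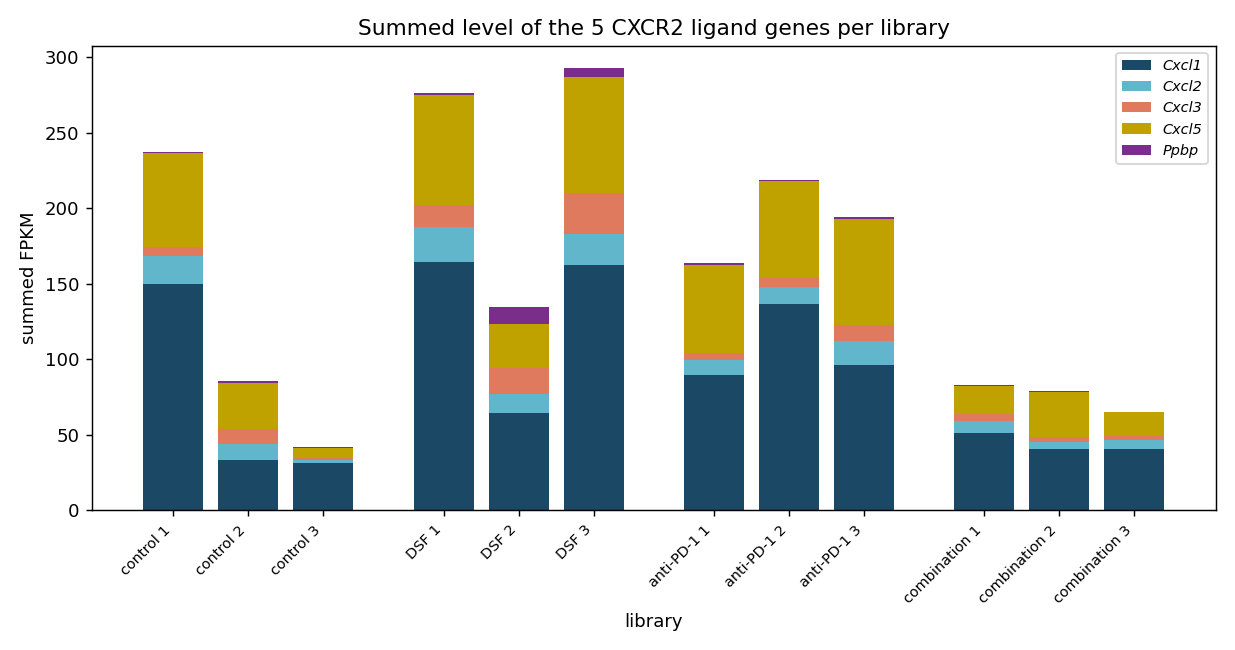
Level of the 5 CXCR2 ligands in FPKM (y axis) stacked for each of the 12 libraries (x axis), with 1 colour per gene. The combination libraries sum to between 64.9 and 82.7 FPKM, below every DSF library and every anti-PD-1 library, and the 3 control libraries spread from 41.8 to 237 FPKM.

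The summed ligand level was 237, 85.5 and 41.8 FPKM in control 1, 2 and 3, and 276, 134 and 293 FPKM in DSF 1, 2 and 3. It was 163, 219 and 194 FPKM in anti-PD-1 1, 2 and 3, and 82.7, 79.2 and 64.9 FPKM in combination 1, 2 and 3. The combination tumours thus lay below both single treatments without overlap, but within the range of the controls, which reached both lower and higher. The control group was the widest: control 3 was the lowest of all 12 libraries for 7 of the 10 genes (Cxcl1, Cxcl2, Cxcl3, Cxcl5, Cxcr2, Csf3 and Il6).

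The combination was compared with DSF alone, which asks what the antibody added to DSF. One gene of the 10, Ppbp, fell in the combination tumours, and the other 4 ligands and Csf3 had log2 fold changes between -2.52 and -1.54 that did not pass the test. Of all genes tested, 0.255% were called lower (36 genes) and 1.86% were called in either direction, at an adjusted p under 0.05 in edgeR's quasi-likelihood test. At an unadjusted p under 0.05, 6 of the 10 passed, against 18.9% of all genes. DESeq2 called 3 of the 10 (Ppbp, Cxcl3 and Cxcl2) and 8.37% of all genes, and limma on log2(FPKM + 1) called 2 (Ppbp and Cxcl3) and 3.05%. The median log2 fold change of the 10 genes was -1.58, against -0.0246 for all genes tested, and 8 of the 10 were below 0, as were 53.8% of all genes. In bulk tissue, fewer cells of a type and less RNA per cell cannot be told apart.

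Ppbp encodes the platelet-stored precursor that is cleaved to the CXCR2 ligand CXCL7. It had 1.55, 10.1 and 5.13 CPM in DSF 1, 2 and 3 and 0.526, 0.583 and 0.119 CPM in combination 1, 2 and 3, with 0.670, 1.24 and 0.882 CPM in the controls and 0.712, 0.786 and 0.903 CPM in the anti-PD-1 tumours. All 3 DSF libraries were above all other libraries, and all 3 combination libraries were below them. Against DSF, the log2 fold change was -3.76 (SE 0.71, edgeR adjusted p = 0.0409). The gene was sparse, with between 2 and 9 reads in the combination libraries and 24, 162 and 70 reads in DSF 1, 2 and 3. The call was lost without control 1, 2 or 3, DSF 3, anti-PD-1 3 or combination 2 or 3 (adjusted p between 0.0258 and 0.16 over all 12 omissions), and in a fit of only DSF and combination libraries (adjusted p = 0.101).

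Cxcl3, a CXCR2 ligand of the same cluster, had 5.30, 8.24 and 1.29 CPM in controls 1, 2 and 3 and 11.8, 14.5 and 22.7 CPM in DSF 1, 2 and 3. It had 3.97, 5.02 and 8.30 CPM with anti-PD-1 and 3.91, 2.55 and 2.03 CPM with the combination. The DSF libraries were above every other library, while combination 1 and anti-PD-1 1 were close, at 3.91 and 3.97 CPM. Combination against DSF gave a log2 fold change of -2.52 (SE 0.57, edgeR adjusted p = 0.0508), just outside the threshold. DESeq2 put it inside, at an adjusted p of 0.000358, as did limma on log2(FPKM + 1), at 0.0396.

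Cxcl1, the KC chemokine of mice, had 115, 25.3 and 22.7 CPM in controls 1, 2 and 3 and 127, 49.9 and 124 CPM in DSF 1, 2 and 3. It had 68.1, 106 and 71.5 CPM with anti-PD-1 and 37.7, 29.9 and 30.6 CPM with the combination. Combination libraries were below every DSF and every anti-PD-1 library, while controls 2 and 3 were lower still. The log2 fold change against DSF was -1.61 (SE 0.57, edgeR adjusted p = 0.155).

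Cxcl2, also called MIP-2, had 16.7, 9.47 and 2.0 CPM in controls 1, 2 and 3 and 21.4, 11.2 and 18.2 CPM in DSF 1, 2 and 3. It had 8.72, 10.3 and 14 CPM with anti-PD-1 and 6.83, 4.08 and 4.95 CPM with the combination, and the combination libraries again lay below both single treatments. Against DSF the log2 fold change was -1.67 (SE 0.57, edgeR adjusted p = 0.141), and DESeq2 gave an adjusted p of 0.0328. Cxcl5, the LIX chemokine, had 92.0, 44.5 and 8.41 CPM in controls, 109, 44.0 and 114 CPM with DSF, 85.2, 95.4 and 101 CPM with anti-PD-1 and 25.9, 42.6 and 23.3 CPM with the combination. DSF 2 and combination 2 were next to each other at 44.0 and 42.6 CPM, so the gap between those groups was narrow. The log2 fold change was -1.54 (SE 0.63, edgeR adjusted p = 0.218).

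Csf3, encoding G-CSF, had 140.0, 60.6 and 13 CPM in controls 1, 2 and 3 and 143, 67.9 and 174 CPM in DSF 1, 2 and 3. It had 49.3, 109 and 96.0 CPM with anti-PD-1 and 46.0, 35.9 and 17.2 CPM with the combination. The combination libraries were below all DSF and all anti-PD-1 libraries, although combination 1 and anti-PD-1 1 were close, and control 3 was the lowest of all. The log2 fold change against DSF was -1.96 (SE 0.70, edgeR adjusted p = 0.158).

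Thus 6 of the 10 genes (the 5 ligands and Csf3) were lower in every combination library than in every DSF library, where 10.8% of all genes tested were, and the same 6 were lower than in every anti-PD-1 library, where 10.1% were. Both held at once for 3.66% of all genes. These orders are in CPM, and Cxcl3 met the second narrowly, at 3.91 CPM in combination 1 and 3.97 CPM in anti-PD-1 1. Csf2 went the other way against anti-PD-1: it was higher in every combination library than in every anti-PD-1 library, with between 4 and 22 reads per library. The share of all genes higher in that way is not given here. The comparisons with DSF and with anti-PD-1 share the combination libraries.

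**Figure D3:**
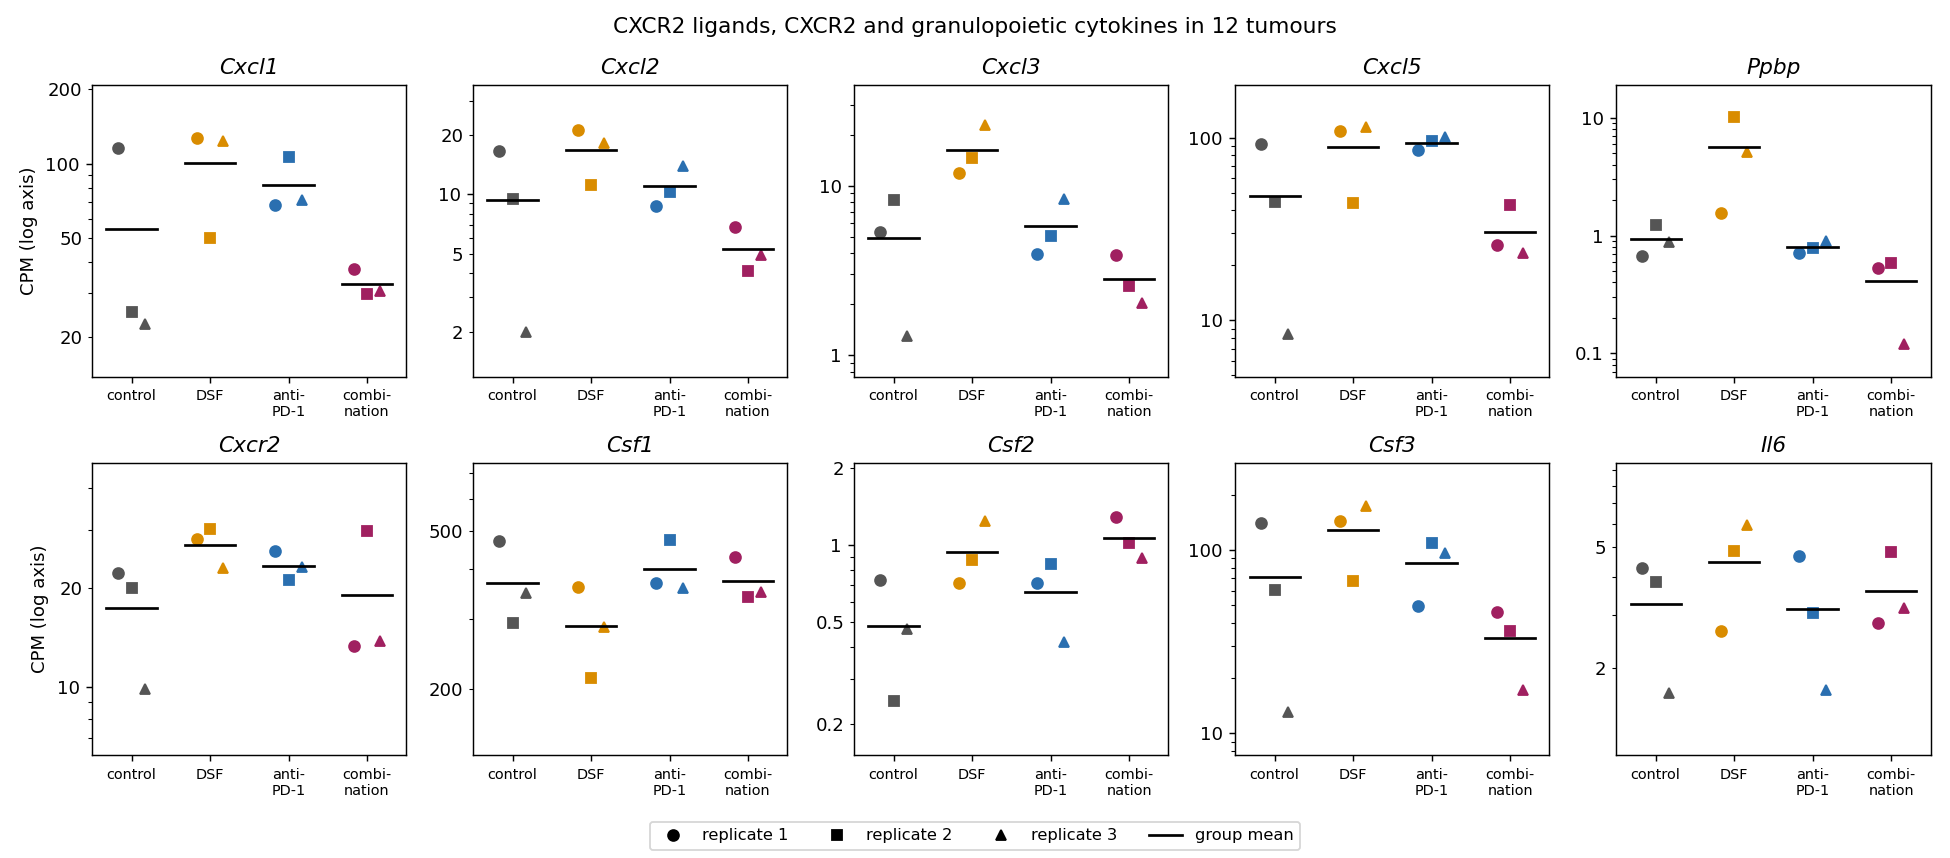
CPM of each of the 10 genes (y axis, log scale) by group (x axis), with 1 point per library, the shape giving the replicate number, and a line at the mean of 3 libraries. The 3 combination points of Cxcl1, Cxcl2, Cxcl3, Cxcl5, Ppbp and Csf3 lie below the DSF and the anti-PD-1 points, and the control points of most of these genes spread widely.

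The receptor and the other cytokines did not follow the order of the ligands and Csf3. Cxcr2 had 22.1, 19.9 and 9.88 CPM in controls, 28.0, 30.0 and 22.9 CPM with DSF, 25.8, 21.0 and 23.1 CPM with anti-PD-1 and 13.3, 29.8 and 13.8 CPM with the combination. Combination 2 was as high as the DSF libraries, and the other two combination libraries were lower than all DSF and anti-PD-1 libraries. The log2 fold change against DSF was -0.51 (SE 0.34, edgeR adjusted p = 0.452), -0.99 without combination 2 and -0.33 without combination 1.

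Csf1, the macrophage growth factor, varied least of the 10, by 2.21-fold between the lowest and the highest library. It had 471, 293 and 348 CPM in controls, 362, 214 and 287 CPM with DSF, 371, 473 and 360 CPM with anti-PD-1 and 429, 342 and 350 CPM with the combination. All 4 groups overlapped except that DSF 2 and DSF 3 were below every library of the other groups. Against DSF the log2 fold change was 0.38 (SE 0.21, edgeR adjusted p = 0.377).

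Csf2, encoding GM-CSF, was near the limit of detection, with between 4 and 22 reads per library. It had 0.731, 0.248 and 0.471 CPM in controls and 1.28, 1.02 and 0.894 CPM with the combination, without overlap. It had 0.710, 0.874 and 1.25 CPM with DSF and 0.712, 0.847 and 0.421 CPM with anti-PD-1. Against DSF the log2 fold change was 0.18 (SE 0.45, edgeR adjusted p = 0.873). Il6 had 4.26, 3.84 and 1.65 CPM in controls, 2.65, 4.87 and 5.94 CPM with DSF, 4.68, 3.02 and 1.68 CPM with anti-PD-1 and 2.80, 4.81 and 3.16 CPM with the combination. All 4 groups overlapped, and the log2 fold change of Il6 against DSF was -0.32 (SE 0.47, edgeR adjusted p = 0.761).

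The interaction asks whether the change with DSF differs when the antibody is also given. It takes the log2 fold change of combination over anti-PD-1 and subtracts that of DSF over control, and so uses all 12 libraries. edgeR called 0 of the 10 genes and 0% of all genes, and limma on log2(FPKM + 1) called 0. At an unadjusted p under 0.05 edgeR had 6 of the 10, against 12.4% of all genes. DESeq2 called 2, Cxcl3 and Ppbp, at adjusted p of 0.0345 and 0.0393, against 1.75% of all genes. The estimates were below 0 for 9 of the 10, with a median of -2.05 against -0.0215 for all genes, of which 52.5% were below 0.

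By gene, the interaction was -2.20 (SE 0.79) for Cxcl1, -1.90 (SE 0.79) for Cxcl2, -2.75 (SE 0.79) for Cxcl3, -2.50 (SE 0.89) for Cxcl5 and -3.55 (SE 0.95) for Ppbp on the log2 scale. For Csf3 it was -2.21 (SE 0.96). The edgeR adjusted p of these 6 ranged from 0.269 to 0.380. The size depended on the controls: for Cxcl1 the interaction was -3.42 without control 1 and -1.85 without control 3. All 6 genes kept their sign in every omission of 1 library, between -3.99 and -1.44.

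Within this design, DSF alone against control had positive estimates for 9 of the 10 genes, with a median of 0.865 on the log2 scale against 0.0308 for all genes, of which 44.4% were below 0. This comparison shares the DSF libraries with that of combination and DSF. Ppbp had a log2 fold change of 2.58 (SE 0.65) and Cxcl3 of 1.72 (SE 0.55), with edgeR adjusted p of 0.245 and 0.330. Every DSF library exceeded every control for Ppbp, Cxcl3 and Cxcr2, 3 of the 10 genes, as for 5.07% of all genes. For Cxcl1, Cxcl2, Cxcl5 and Csf3 the log2 fold changes lay between 0.85 and 0.88, and they turned on the controls. Without control 3 they were 0.52, 0.38, 0.39 and 0.36, and without control 1 they were 2.08, 1.58, 1.77 and 1.82. edgeR called 0 of the 10 genes and 0% of all genes, with 2 of the 10 at an unadjusted p under 0.05 against 10.6%. DESeq2 called 1, Ppbp, at an adjusted p of 0.0197 (1.73% of all genes called), and limma called 0.

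The combination against anti-PD-1 alone gave log2 fold changes of -1.32 (SE 0.57) for Cxcl1, -1.05 (SE 0.56) for Cxcl2, -1.02 (SE 0.56) for Cxcl3, -1.62 (SE 0.64) for Cxcl5, -0.97 (SE 0.70) for Ppbp and -1.36 (SE 0.69) for Csf3. Without combination 3 Ppbp was at -0.53, and without anti-PD-1 3 Cxcl3 was at -0.67. The edgeR adjusted p ranged from 0.444 to 0.644, and the median of the 10 was -0.995 against 0.00959 for all genes. edgeR called 0 of the 10 and 0% of all genes, with 2 of the 10 at an unadjusted p under 0.05 against 10.3%, and DESeq2 (0.465% of all genes called) and limma called 0 of the 10.

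**Figure D4:**
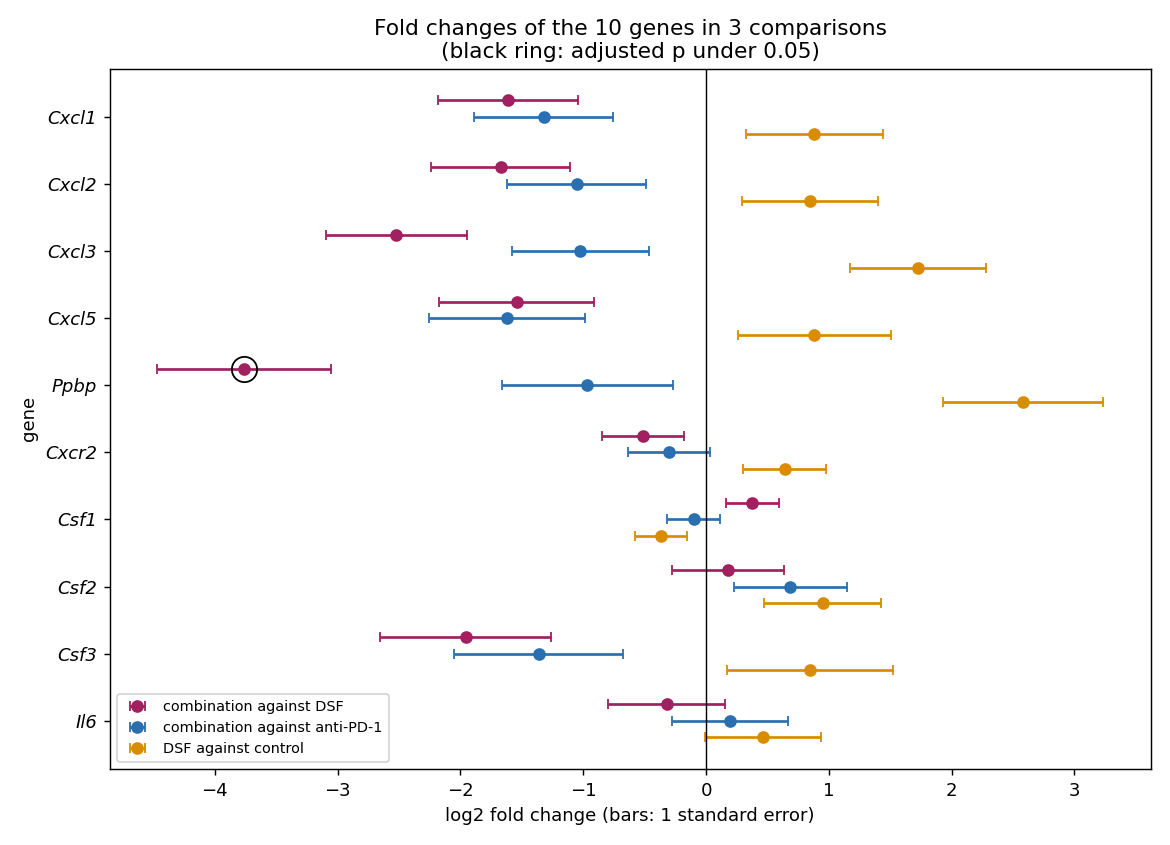
Log2 fold change (x axis) of the 10 genes (y axis) in the combination against DSF, DSF against control, and combination against anti-PD-1, with bars of 1 standard error from edgeR. Ppbp in the combination against DSF, at -3.76, is the 1 estimate that passes an adjusted p of 0.05.

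In the remaining comparisons edgeR also called 0 of the 10 genes. Anti-PD-1 against control had 0 at an unadjusted p under 0.05, against 1.73% of all genes, and 0 by DESeq2 and limma. The combination against control had 1, Csf2, against 11.2%, and 0 by DESeq2 (1.79% of all genes called) and limma. Csf2 was higher and Ppbp was lower in every combination library than in every control library, as were 11.5% and 7.8% of all genes. DSF against anti-PD-1 had 3 at an unadjusted p under 0.05, against 7.94%, while edgeR called 0.0707% of all genes. DESeq2 called 1, Ppbp, against 1.04%, and limma called 0, against 0.134%. The median log2 fold changes of the 10 genes in these comparisons were 0.241, -0.695 and 0.511.

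The main effect of DSF, over tumours with and without the antibody, had 1 of the 10 genes at an unadjusted p under 0.05, against 8.15% of all genes, and 0 by DESeq2 (0.57% of all genes called) and limma. The main effect of anti-PD-1 had 2, against 10.1%, and DESeq2 called 1, Ppbp, against 2.3%. For any difference among the 4 groups, Ppbp had an edgeR adjusted p of 0.0900 and Cxcl3 of 0.148, and 13.2% of all genes were at an unadjusted p under 0.05. DESeq2 called both, against 6.22% of all genes.

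The 9 tested genes for further receptors of these ligands and cytokines did not move in 1 direction between combination and DSF: 5 were higher, 4 were lower, and edgeR called 0, with 3 at an unadjusted p under 0.05. Csf3r, the G-CSF receptor of the granulocyte lineage, had 105, 93.7 and 64.7 CPM with DSF and 49.2, 75.4 and 43.4 CPM with the combination, a log2 fold change of -0.65 (adjusted p = 0.245). Its groups overlapped through combination 2. Cxcr1, a second receptor for ELR chemokines, had a log2 fold change of -0.92 (adjusted p = 0.412), and Ackr1, which binds chemokines without signalling, -0.33 (adjusted p = 0.889). The M-CSF receptor gene Csf1r was at 0.54, and the GM-CSF receptor chains Csf2ra and Csf2rb and the paralogue Csf2rb2 were at 0.44, 0.46 and 0.68. The interleukin-6 receptor Il6ra was at 0.09 and the signal chain Il6st at -0.09.

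The upstream and downstream genes were tested in the same comparison of combination with DSF. Of 14 inducers and their receptors and sensors, 12 were tested and edgeR called 0, with a median log2 fold change of 0.127. The values ran from -1.24 for Il23a, a subunit of interleukin-23 (adjusted p = 0.0691), to 1.29 for Tnf (adjusted p = 0.0667), and Il17a and Il17f did not pass the filter. Of 10 regulators of NF-kB, C/EBP and cytokine mRNA decay, edgeR called 0, with a median of -0.175, from -0.84 for Cebpb to 0.07 for Rela, an NF-kB subunit. Of 6 targets of interleukin-6 and STAT3, edgeR called 0, 5 were below 0 and the median was -0.331, from -2.20 for Lcn2, an iron-binding protein also made by neutrophils (adjusted p = 0.0508), to 0.10 for Pim1.

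Among 8 tested genes for other haematopoietic cytokines edgeR called 0, with a median of -0.00103, from -1.35 for Il11 to 0.47 for Flt3l. Among 6 tested genes for other routes of neutrophil movement the median was -0.18, from -0.43 for Cxcr4 to 0.73 for Fpr2, a formyl peptide receptor.

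Neutrophil markers were lower beside the ligands. Of 20 neutrophil genes, 16 had estimates below 0 in combination against DSF, with a median of -1.47 on the log2 scale. Retnlg (-3.75), S100a8 (-1.84), S100a9 (-1.90) and Mmp9 (-1.82) fell, at adjusted p between 0.0409 and 0.0499, while Asprv1, also expressed in epidermis, rose by 2.63 (adjusted p = 0.0409). Their summed level was 902 to 1067 CPM in DSF, 889 to 1005 CPM in anti-PD-1, 562 to 580 CPM in combination and 508 to 1206 CPM in control libraries. S100a8, a calprotectin subunit, had 76.3, 83.6 and 61.8 CPM with DSF and 15.4, 26.0 and 20.9 CPM with the combination, without overlap. Of 7 immature granulocyte genes 4 were tested, and edgeR called 0. In combination against DSF 3 had estimates above 0 and 1 below, with a median of 0.11, from -1.36 for Prtn3 to 2.15 for Ctsg. The summed level of the 7 was low, at 6.09 to 57.4 CPM in DSF and 10.2 to 46.8 CPM in combination libraries. The part of neutrophil content in the ligand values was not tested.

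Ppbp is a platelet gene, and the values of other platelet genes are given beside it. Pf4, another chemokine of platelets, had 58.9, 155 and 113 CPM with DSF and 51.8, 46.8 and 65.6 CPM with the combination, a log2 fold change of -0.99 (adjusted p = 0.129). DSF 1 lay within the range of the combination libraries. Of 11 platelet markers 3 were tested, with a median log2 fold change of 0.692, since the receptor subunits Gp1bb and Itga2b were at 0.82 (adjusted p = 0.422) and 0.69 (adjusted p = 0.265), opposite in sign to Pf4 and Ppbp. Itga2b had 2.52, 4.31 and 3.30 CPM with DSF and 5.31, 5.76 and 5.30 CPM with the combination. The other 8 had between 0 and 13 reads in each library. The summed platelet level, most of which was Pf4, was 63.2 to 162 CPM in DSF and 57.5 to 73.7 CPM in combination libraries. The part of platelets in the Ppbp value was not tested.

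Skin markers also differed between these groups. Of 12 tested skin genes edgeR called 7 higher in the combination (Lgals7, Dsg1a, Flg, Krt1, Calml3, Sbsn and Krtdap), with a median log2 fold change of 3.92 over the 12. These 7 rose by between 2.96 for Sbsn and 5.16 for Flg, an epidermal barrier protein. The highest estimate, 10.42 for Tchh (adjusted p = 0.0672), came from combination 2, with 21600 reads against 17 and 23 in combination 1 and 3. The 9 adipocyte genes had estimates below 0, from -4.48 for Pck1 to -2.17 for Lep, and 0 were called. These estimates rest on DSF 2: the summed adipocyte level was 60.0, 6910 and 39.4 CPM in DSF 1, 2 and 3 and 116, 379 and 206 CPM in the combination, so DSF 1 and DSF 3 lay below every combination library. When scores of both tissues were added to the fit, Ppbp was at -2.68 and Cxcl3 at -1.59 on the log2 scale, Cxcl1 at -0.41 and Csf3 at -0.42, and 0 of the 10 genes were called. The summed skin markers did not overlap, at 52.1 to 143 CPM in DSF and 561 to 5951 CPM in combination libraries. That fit therefore cannot tell tissue from treatment. All 7 tested T cell genes were above 0 in the combination against DSF, from 0.83 for Cd8a to 1.48 for Cd4, with a median of 1.00, and edgeR called 0. Of 12 macrophage genes, Cd14, a lipopolysaccharide co-receptor, fell by 0.88 on the log2 scale (adjusted p = 0.0416), and the median of the 12 was 0.489, up to 0.84 for Adgre1.

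**Figure D5:**
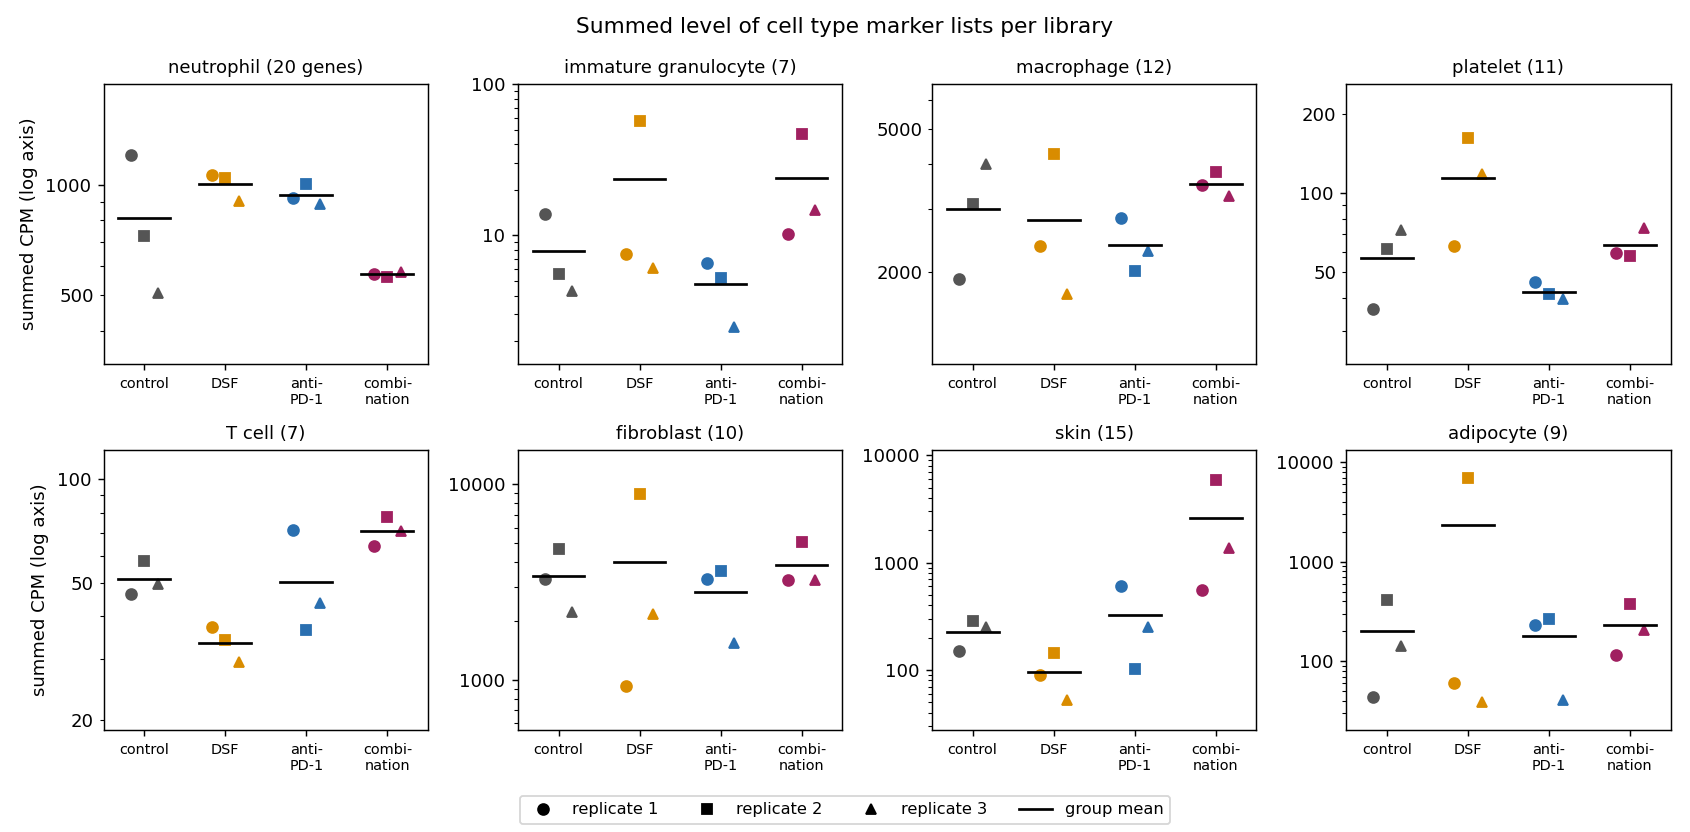
Summed CPM of 8 cell type marker lists (y axis, log scale) by group (x axis), with 1 point per library and a line at the mean of 3 libraries. The neutrophil sum of the combination libraries is 562 to 580 CPM, against 902 to 1067 CPM with DSF, and DSF 2 stands apart in adipocyte markers and combination 2 in skin markers.

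One transcript held most of each gene. Cxcl1, Cxcl2, Cxcl3, Cxcl5 and Ppbp each had 1 transcript in the deposited transcript table. The main transcript held between 82.1% and 90.0% of Csf1, between 95.7% and 100% of Cxcr2, between 91.6% and 100% of Csf2, between 88.2% and 98% of Csf3 and between 96.3% and 100% of Il6.

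Across the 12 libraries, the genes closest to Cxcr2 in log2 CPM were Csf3r (Pearson r = 0.938, Spearman rho = 0.811), Ppp1r3b (0.925 and 0.832) and Mrgpra2a (0.922 and 0.916). Among those closest to Csf3 were Tnfaip2 (0.964 and 0.993) and Uba3 (0.954 and 0.958). Those closest to Il6 were Sema3a (0.866 and 0.846), Wt1 (0.856 and 0.832) and Dnajc3 (0.85 and 0.811). They are from the top 3 of 14143 genes each, chosen for likeness over libraries that share group, depth and tissue makeup, and are a description only.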

How the data were processed

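The deposited gene table holds expected counts and FPKM per gene for the 12 tumour libraries, made by the authors; 9.02% of the expected counts are not whole, and they were rounded here. The submitters' processing notes list DESeq2 1.4.5, RSEM 1.2.12, HISAT2 2.0.4 and Bowtie2 2.2.5 with no roles, and the genome build is not given in the sources used here. Deposited TPM values were not used, nor were the authors' correlation and component tables. Columns were matched through the deposited group plan, in which p is anti-PD-1, and the control column ending in 11 was read as control 1.

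edgeR 4.0.16 in R 4.3.3 (filterByExpr, TMM, quasi-likelihood, 1 mean per group, all 12 libraries) was run over 14144 genes with two-sided tests, and p-values were adjusted by Benjamini-Hochberg, with genes under 0.05 called. CPM are on TMM-scaled sizes. The fits were tested on simulated data. DESeq2 1.42.0 and limma 3.58.1 on log2(FPKM + 1), a pseudocount that understates changes of low genes, were alternatives. The 10 genes, the lists and the tests were chosen with earlier results of these data known. Named were the 10 genes, receptors, the extremes and called genes of each list described, and the 3 genes most like Cxcr2, Csf3 and Il6, of which 1 is not reported here. Sequences are RefSeq promoters.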

Additional observations from a re-analysis of the deposited data

Results flagged for a closer look

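For Cxcl3 and Ppbp the estimated change with DSF ran in opposite directions without and with the antibody. They were flagged because the libraries did not overlap in either comparison, and the share of all genes that meet this is not given here. The estimates of Cxcl1, Cxcl2, Cxcl5 and Csf3 had the same signs. Combination against anti-PD-1 gave -1.02 (edgeR adjusted p = 0.544) for Cxcl3 and -0.97 (edgeR adjusted p = 0.644) for Ppbp. edgeR called neither gene in either comparison. In CPM, every DSF library was above every control library, and every combination library was below every anti-PD-1 library. For Cxcl3 the second gap was narrow, at 3.91 CPM in combination 1 and 3.97 CPM in anti-PD-1 1. On the FPKM scale these 2 libraries were in the other order. The interaction on the log2 scale was -2.75 for Cxcl3 (edgeR adjusted p = 0.272, DESeq2 adjusted p = 0.0345) and -3.55 for Ppbp (edgeR adjusted p = 0.269, DESeq2 adjusted p = 0.0393), so the difference passed by DESeq2 and not by edgeR.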

How the results depend on the processing

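In the combination against DSF, edgeR called 1 of the 10 genes (Ppbp). DESeq2 called 3 (Ppbp, Cxcl3 and Cxcl2), and limma called 2 with a pseudocount of 1 or 0.1. The count was 0 with only the groups compared and with the replicate block. It was 0 with scores of skin and adipocyte markers as covariates, a fit that cannot tell tissue from treatment here. It was also 0 without both DSF 2 and combination 2, an alternative chosen after seeing the data (Ppbp -3.33, adjusted p = 0.113). Leaving out 1 library at a time gave counts from 0 to 2. DESeq2 called 2 for any difference and for the interaction, and 1 each for DSF against control, DSF against anti-PD-1 and the anti-PD-1 main effect, where edgeR called 0. The cause of these differences was not tested. The alternatives were followed for 28 log2 fold changes. These were all 10 genes in combination against DSF, and the ligands and Csf3 in combination against anti-PD-1, DSF against control and the interaction. None of them reversed. Over all settings 561 values stayed on the same side of the threshold, 10 passed it and 11 lost it. All 11 losses were of Ppbp in combination against DSF, the only call that could be lost. Most of the 561 were estimates called in neither fit. Whether the replicate numbers pair the libraries was not settled. Deviations from the group means had a mean correlation of 0.106 in 18 same-number pairs (-0.365 to 0.462). In the 36 other pairs between groups the mean was -0.0504 (-0.465 to 0.414). Of the same-number pairs 10 correlated above 0.1, and 7 of 12 libraries correlated best with their own number. With the replicate block Ppbp had a log2 fold change of -3.57 (adjusted p = 0.0633). With 3 libraries per group, and reads as few as 2 for Ppbp and 4 for Csf2, depth limits both genes.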
